A study of Mus musculus with 30 samples.

Results

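The 10 genes described here mark the ventral forebrain and its GABAergic neurons, and were read from every probe set of the array whose platform gene symbol is Dlx1, Dlx2, Dlx5, Dlx6, Lhx6, Lhx8, Nkx2-1, Gsx2, Gad1 or Gad2. This gave 13 of the 34945 probe sets with 1 gene symbol, and 10 of 18193 genes. Affymetrix Mouse 430 2.0 arrays measured RNA of 30 samples, all from mice of a mixed Swiss and C57BL/6J background. The neurosphere samples, 22 in number, were cultures of neural progenitors taken from ganglionic eminences at E14.5, the embryonic source of forebrain inhibitory neurons, and grown with EGF and bFGF. All of them lacked Ink4a/Arf and had received human EGFRvIII, a constitutively active receptor, by retrovirus and drug selection. Olig1/2-/- cultures without a further virus (6 arrays) are called null, Olig1/2+/- cultures (3) heterozygous and Olig1/2+/+ cultures (3) wild type. From some of the same lines came null cultures with Olig2 virus (3) or GFP virus (3) and heterozygous cultures with Olig2 virus (2) or GFP virus (2). The other 8 arrays were spinal cord and forebrain of 4 embryos at E18.5, with 2 null and 2 heterozygous embryos, and no wild-type tissue was measured. The tissue labels name the genotype Olig2 -/- or +/-, while the series design names Olig1/2, and no label states a loss of Ink4a/Arf or EGFRvIII in tissue. Harvests spanned many passages, and no source used here gives the passage of each array. The numbers of line or embryo in the labels were taken as separate cultures and animals.

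The genes fall into 3 tiers. Gsx2 and Nkx2-1 encode homeodomain proteins that pattern ventral progenitors, Gsx2 mainly in the lateral and Nkx2-1 in the medial ganglionic eminence. The Dlx genes encode homeodomain proteins that act after them in nearly all ganglionic eminence derivatives, and they lie in neighbouring pairs, Dlx1 with Dlx2 and Dlx5 with Dlx6. Lhx6 and Lhx8 encode LIM-homeodomain proteins of the medial eminence, Lhx6 in migrating cortical interneurons and Lhx8 in cholinergic neurons. Gad1 and Gad2 encode the enzymes that make GABA, and inhibitory neurons of the spinal cord use them as well, whereas Dlx genes are a forebrain system. OLIG2 is present in ganglionic eminence progenitors, and OLIG1 and OLIG2 are basic helix-loop-helix factors, a class that binds the letters CANNTG.

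The label checks came first. In neurospheres the targeted genes read lower in null than in Olig-expressing (heterozygous and wild-type) cultures, by -1.61 for Olig1 and -0.80 for Olig2 on the log2 scale (limma, adjusted p 2.08e-07 and 0.00279). Id4, which encodes an inhibitor of such factors, was higher by 4.33 (adjusted p 2.82e-08). Signal of both Olig probe sets remained in null cultures, and no source used here places the probes relative to the deletion. In null lines with Olig2 virus the Olig2 probe set read 6719.5 ± 2918.2, against 9167.9 ± 1015.5 with GFP virus (SD, n = 3 each), a difference of -0.53 (adjusted p 0.181) that does not show the added gene. Spinal cord read lower in null than in heterozygous embryos for Olig1 (-1.03, adjusted p 0.00537) and Olig2 (-3.24, adjusted p 0.0431). In null forebrain Olig2 read -1.33 against heterozygous forebrain (adjusted p 0.721). Values are MAS5 signals on a linear scale with a trimmed mean of 500 on each array, and differences are of log2(signal + 16), which understates the change of dim probe sets. Array medians lay between 128.9 and 217.4, and correlations between arrays of 1 group between 0.926 and 0.945. The 3 null cultures with GFP virus had the lowest medians (128.9 to 151.6), and line 13 among them had a 3'/5' Gapdh log2 ratio of 0.432, a sign of RNA quality, and an A260/A280 ratio of 2.83. A gene was tested in a comparison when its signal was at or over the array median on a number of arrays no smaller than the smallest group, and was called at an adjusted p under 0.05.

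**Figure D1:**
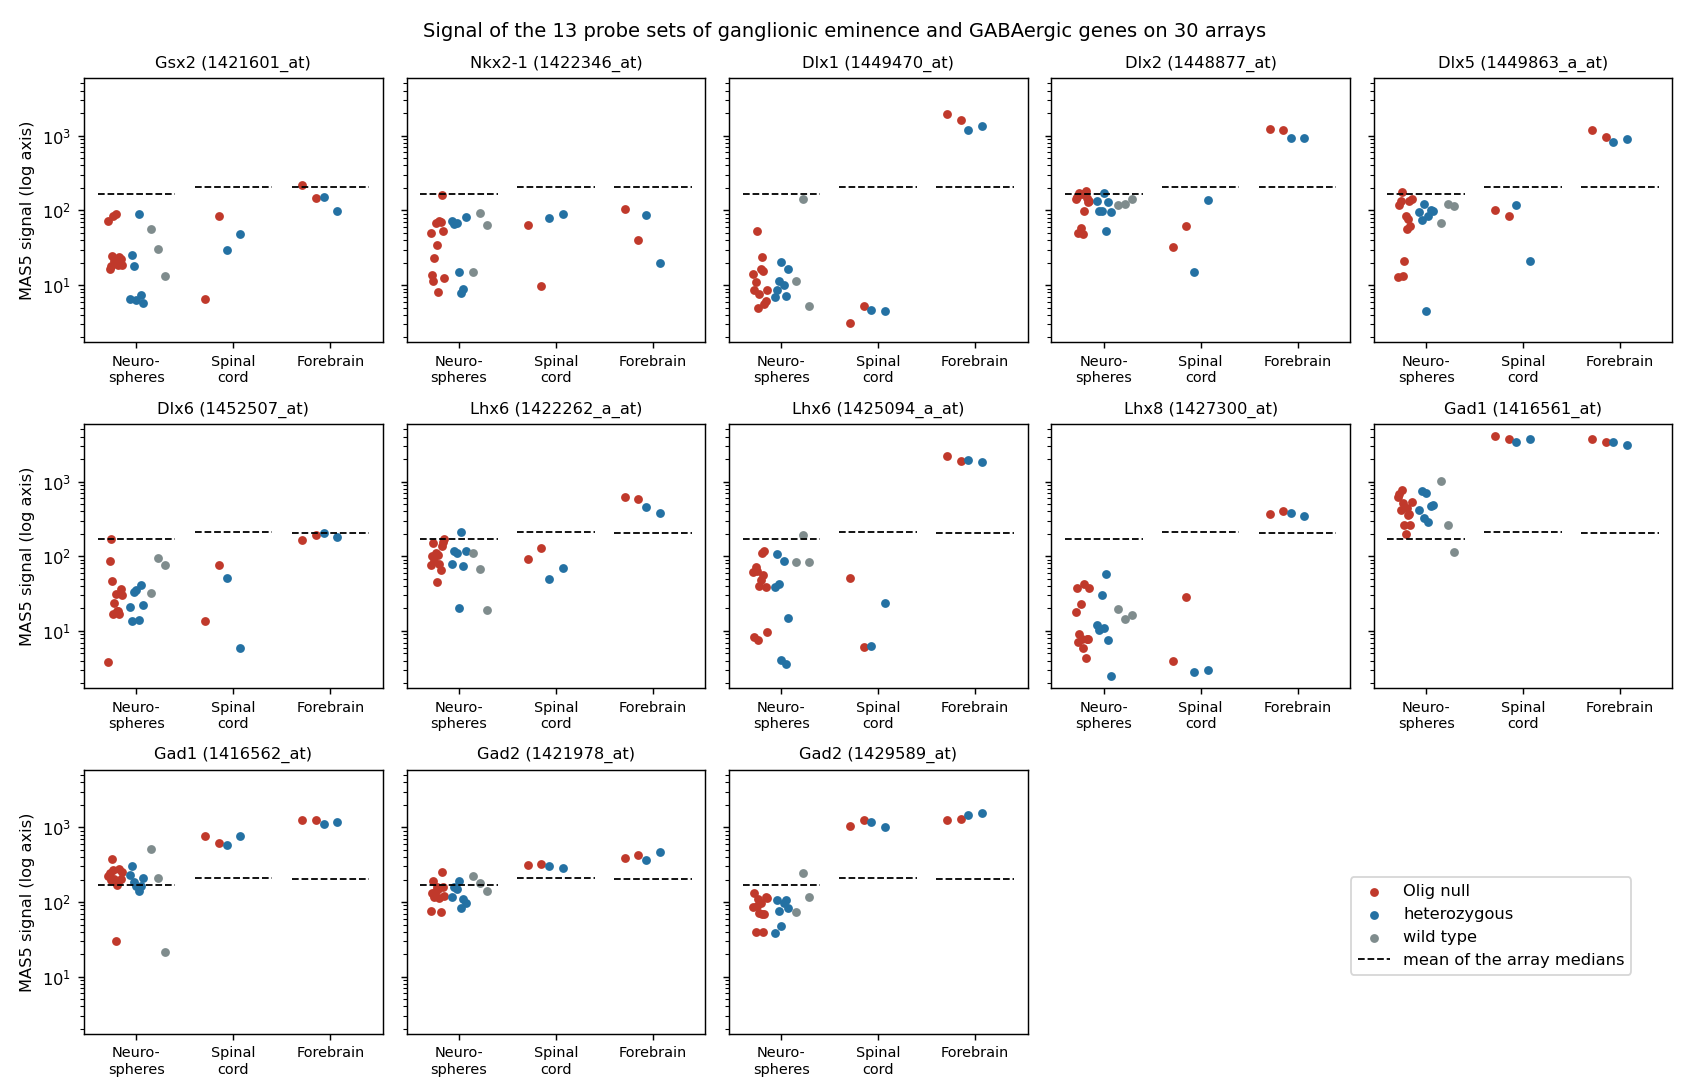
MAS5 signal (log axis) of each of the 13 probe sets on every array, with neurospheres, spinal cord and forebrain from left to right and genotype by colour, and the dashed line at the mean of the array medians. The Dlx, Lhx6 and Lhx8 panels stand high in forebrain alone except Dlx6, the Gad panels stand high in both tissues, and Gad1 is the gene whose neurosphere points lie mostly above the line.

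Most of these genes read far lower in neurospheres than in E18.5 forebrain, and Gad1 was the one read above the array median on most neurosphere arrays. Of 286 readings (13 probe sets on 22 neurosphere arrays), 49 reached the array median, and 39 of these were readings of Gad1. By definition about as many probe sets of an array reach its median as do not, so reaching it is not by itself a sign of expression. The remaining probe sets reached it in 10 of 242 readings. For 11 of the 13 probe sets every neurosphere array lay below every forebrain array, the exceptions being Dlx6 and Nkx2-1. The share of all probe sets that separate in this way was not computed, so this count is a description. Of the 10 genes, 7 passed the filter in the fit over the 12 neurosphere arrays without GFP or Olig2 virus and the 8 tissue arrays, and all 7 were called lower in neurospheres than in forebrain. Among all 13672 genes tested there, 61.8% were called and 30.9% were called lower, with a median difference of -0.04 over all genes and of -3.46 over these 7. Dlx1, Dlx2, Dlx5, Lhx6 and Lhx8 passed through forebrain and Gad2 through both tissues, where they are high. Gad1 reached the array median on most neurosphere arrays as well. The count and the median over the 7 are therefore descriptions. Without the filter 9 of 10 genes were called lower, the exception being Nkx2-1 (-0.19, adjusted p 0.757). The share of all genes called without the filter is not given here, so this count too is a description. Age, dissection and culture differ together between the cultures and the tissue, and so, as far as the labels state, do Ink4a/Arf loss and EGFRvIII. These cannot be told apart, and neither can fewer cells of a type and less RNA per cell.

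Dlx1 had neurosphere signals of 5.0 at the lowest, 10.5 at the median and 142.8 at the highest, the last in wild-type line 3. Spinal cord read 3.1 and 5.2 in null and 4.7 and 4.5 in heterozygous embryos, and forebrain read 1953.9 and 1634.7 in null and 1206.7 and 1331.9 in heterozygous embryos. Forebrain stood far above all other samples, and the neurosphere and cord values were both in the dimmest range of the array. The difference was -5.80 ± 0.47 (SE) for neurospheres against forebrain (adjusted p 3.01e-09) and -6.22 ± 0.27 (SE) for spinal cord against forebrain (adjusted p 4.18e-08). Dlx1as, the antisense transcript of Dlx1, was also lower than in forebrain in neurospheres and in spinal cord, with -4.20 (adjusted p 2.30e-06) and -3.76 (adjusted p 1.70e-05). It ran from 1.6 to 109.6 in neurospheres and from 3.8 to 57.1 in spinal cord, against 539.3 to 690.9 in forebrain.

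Dlx2 had neurosphere signals of 48.5 at the lowest, 130.3 at the median and 182.7 at the highest. Cord signals were 32.7 and 61.2 in null and 15.2 and 136.4 in heterozygous embryos, and forebrain signals were 1247.4 and 1180.2 in null and 945.9 and 926.5 in heterozygous embryos. All forebrain arrays lay above all others, and the neurosphere and cord ranges overlapped. Dlx2 was lower than in forebrain by -3.10 ± 0.36 (SE) in neurospheres (adjusted p 4.25e-07) and by -4.06 ± 0.41 (SE) in spinal cord (adjusted p 1.67e-05). It read 0.96 ± 0.36 (SE) higher in neurospheres than in spinal cord (adjusted p 0.027), a call lost when heterozygous line 11, null cord 1 or heterozygous cord 3 was left out, with values of 0.89, 0.79 and 0.39.

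Dlx5 was lower in neurospheres and in spinal cord than in forebrain. Its signals were 4.5 at the lowest, 90.2 at the median and 178.7 at the highest in neurospheres, 100.2 and 83.6 in null and 118.2 and 21.3 in heterozygous cord, and 1181.0 and 957.2 in null and 812.3 and 906.8 in heterozygous forebrain. The difference from forebrain was -3.46 ± 0.50 (SE) in neurospheres (adjusted p 5.83e-06) and -3.48 ± 0.33 (SE) in spinal cord (adjusted p 1.20e-05). Dlx6 lay below the array median on all tissue arrays and on all but 1 neurosphere array. It had 3.8 at the lowest, 31.1 at the median and 168.7 at the highest in neurospheres, 13.6 and 75.9 in null and 50.7 and 5.9 in heterozygous cord, and 162.7 and 191.0 in null and 202.4 and 182.0 in heterozygous forebrain. It did not pass the filter. Dlx6os1, a non-coding transcript of the Dlx5 and Dlx6 locus and named for it, was lower than in forebrain in neurospheres (-2.62, adjusted p 9.00e-08) and in spinal cord (-2.02).

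The promoter sequences of the pair Dlx1 and Dlx2, whose forebrain signals stood apart together, and of Gad1, the gene read above the array median in most neurosphere arrays, show which CANNTG letters lie before their starts. RefSeq sequences (GRCm38.p6) were matched for 8 of the 10 genes, with 10 start sites, and the window was the 250 bases before a start site in the RefSeq promoter table. For Dlx1 and Gad1 that start lies inside the RefSeq gene span of the same build, so it is not the outermost start of the gene. The windows below are chr2:71529195-71529444 on the plus strand for Dlx1, chr2:71546755-71547004 on the minus strand for Dlx2 and chr2:70561879-70562128 on the plus strand for Gad1. They are written 5′ to 3′ with CANNTG in capitals.
Dlx1: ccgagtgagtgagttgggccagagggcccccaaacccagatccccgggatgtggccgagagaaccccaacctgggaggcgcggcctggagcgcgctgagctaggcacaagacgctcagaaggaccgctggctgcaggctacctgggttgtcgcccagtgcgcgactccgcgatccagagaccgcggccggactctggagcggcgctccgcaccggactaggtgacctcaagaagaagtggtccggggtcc
Dlx2: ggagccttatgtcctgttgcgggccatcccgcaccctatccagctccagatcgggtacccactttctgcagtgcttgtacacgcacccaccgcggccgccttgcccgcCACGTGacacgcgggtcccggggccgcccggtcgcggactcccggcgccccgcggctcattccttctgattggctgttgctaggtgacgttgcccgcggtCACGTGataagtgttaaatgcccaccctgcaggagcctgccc
Gad1: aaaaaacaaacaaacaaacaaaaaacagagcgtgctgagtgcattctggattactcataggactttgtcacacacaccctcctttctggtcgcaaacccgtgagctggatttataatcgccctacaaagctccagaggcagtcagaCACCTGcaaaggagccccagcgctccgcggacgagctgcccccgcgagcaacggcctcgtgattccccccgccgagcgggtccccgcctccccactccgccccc
The motif CANNTG is its own reverse complement, so the count covers both strands. It was in 6 of the 10 windows (60%), against 66.2% of 32851 promoter windows of the same length. The Dlx2 window held 2 copies, the Gad1 window 1 and the Dlx1 window 0. TAATTA, letters of homeodomain binding that also read alike on both strands and do not overlap CANNTG, were in 0 of 10 windows and in 4.84% of all windows.

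Lhx6 has a pair of probe sets. With 1422262_a_at, signals were 19.3 at the lowest, 101.1 at the median and 210.5 at the highest in neurospheres, 93.0 and 130.1 in null and 50.1 and 70.4 in heterozygous cord, and 621.6 and 578.0 in null and 449.1 and 384.1 in heterozygous forebrain. With 1425094_a_at, they were 3.6, 52.3 and 190.8 in neurospheres, 51.6 and 6.1 in null and 6.3 and 23.5 in heterozygous cord, and 2218.0 and 1896.6 in null and 1913.0 and 1820.8 in heterozygous forebrain. Both put all forebrain arrays above all others. Neurospheres against forebrain differed by -2.21 ± 0.31 (SE) with the first (adjusted p 4.69e-06) and, in the fit of all probe sets, by -5.02 ± 0.42 (SE) with the second (adjusted p 4.31e-09, 60.0% of probe sets called). Spinal cord against forebrain differed by -2.40 (adjusted p 1.28e-05) and -5.86 (adjusted p 3.45e-07, 39.9% of probe sets called). Over the 22 neurosphere arrays the log2 signals of the pair did not track each other (Pearson r 0.086, Spearman rho 0.092). These points share their arrays, and lines recur among them.

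Lhx8 was dim outside forebrain. It had 2.5 at the lowest, 11.5 at the median and 58.5 at the highest in neurospheres, 4.0 and 28.1 in null and 2.8 and 3.0 in heterozygous cord, and 363.7 and 397.4 in null and 382.6 and 346.2 in heterozygous forebrain. Neurospheres were lower than forebrain by -3.60 ± 0.40 (SE) and spinal cord by -4.03 ± 0.53 (SE), with adjusted p 1.93e-07 and 1.22e-04. The patterning genes were dim, and 1 array, null forebrain 1 for Gsx2, reached its array median. Gsx2 read 5.8, 21.1 and 90.8 (lowest, median, highest) in neurospheres, 6.6 and 84.2 in null and 29.2 and 47.9 in heterozygous cord, and 222.3 and 146.6 in null and 150.2 and 98.0 in heterozygous forebrain. Nkx2-1 read 7.9, 51.5 and 159.9 in neurospheres, 64.3 and 9.8 in null and 78.8 and 90.8 in heterozygous cord, and 104.0 and 40.2 in null and 87.2 and 20.0 in heterozygous forebrain. For Nkx2-1 the 3 kinds of sample overlapped, so these arrays give no order of its levels. For Gsx2 every neurosphere and cord array lay below every forebrain array, and it passed no filter.

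Gad1 is the member read above the array median on most neurosphere arrays. With 1416561_at its signal was 113.7 at the lowest, 433.8 at the median and 1027.1 at the highest in neurospheres, above the array median in 21 of 22 arrays. Cord read 4037.7 and 3658.2 in null and 3419.5 and 3747.8 in heterozygous embryos, and forebrain read 3706.8 and 3410.7 in null and 3359.6 and 3087.2 in heterozygous embryos. Neurospheres lay below both tissues on every array, by -2.75 ± 0.38 (SE) against forebrain (adjusted p 3.41e-06) and by -2.89 ± 0.38 (SE) against spinal cord (adjusted p 1.79e-06). With 1416562_at neurospheres ran from 21.7 to 518.9, spinal cord from 574.8 to 775.1 and forebrain from 1118.1 to 1247.2. This probe set reached the array median in 18 of 22 neurosphere arrays. Its median percentile there was 49.9 among the probe sets with 1 gene symbol, against 66.2 for 1416561_at. The difference of neurospheres was -2.24 against forebrain and -1.43 against spinal cord with this probe set (adjusted p 1.45e-04 and 0.00651, 62.5% of probe sets called in the second comparison). The pair of Gad1 probe sets tracked each other over the 22 neurosphere arrays (Pearson r 0.795, Spearman rho 0.631, a description of arrays in which lines recur).

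Gad2, which makes GABA at the synapse, was low in neurospheres. With 1429589_at it had 38.1 at the lowest, 86.5 at the median and 248.2 at the highest in neurospheres, 1041.2 and 1258.8 in null and 1169.9 and 1021.4 in heterozygous cord, and 1258.8 and 1299.2 in null and 1459.5 and 1556.9 in heterozygous forebrain. Neurospheres were lower by -3.94 ± 0.28 (SE) against forebrain and by -3.63 ± 0.28 (SE) against spinal cord, with adjusted p 3.96e-10 and 1.26e-09. With 1421978_at the range was 73.2 to 251.3 in neurospheres, 284.3 to 324.2 in spinal cord and 364.9 to 472.1 in forebrain, and neurospheres were again lower (-1.49 and -1.09, adjusted p 2.86e-06 and 9.95e-05). Both Gad genes were called lower than in either tissue by limma. Against spinal cord Dlx2 was called higher (0.96, adjusted p 0.027), and Dlx1, Dlx5, Lhx6 and Lhx8 were not called (0.42, 0.02, 0.19 and 0.44, adjusted p 0.353 to 0.980). No cord array reached the array median for any of these Dlx and Lhx genes, which passed the filter through forebrain. With cord so dim, a lower call like that of the Gad genes was hardly possible, so the contrast is a description. Against spinal cord 63.3% of all genes were called, 32.5% higher and 30.8% lower.

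**Figure D2:**
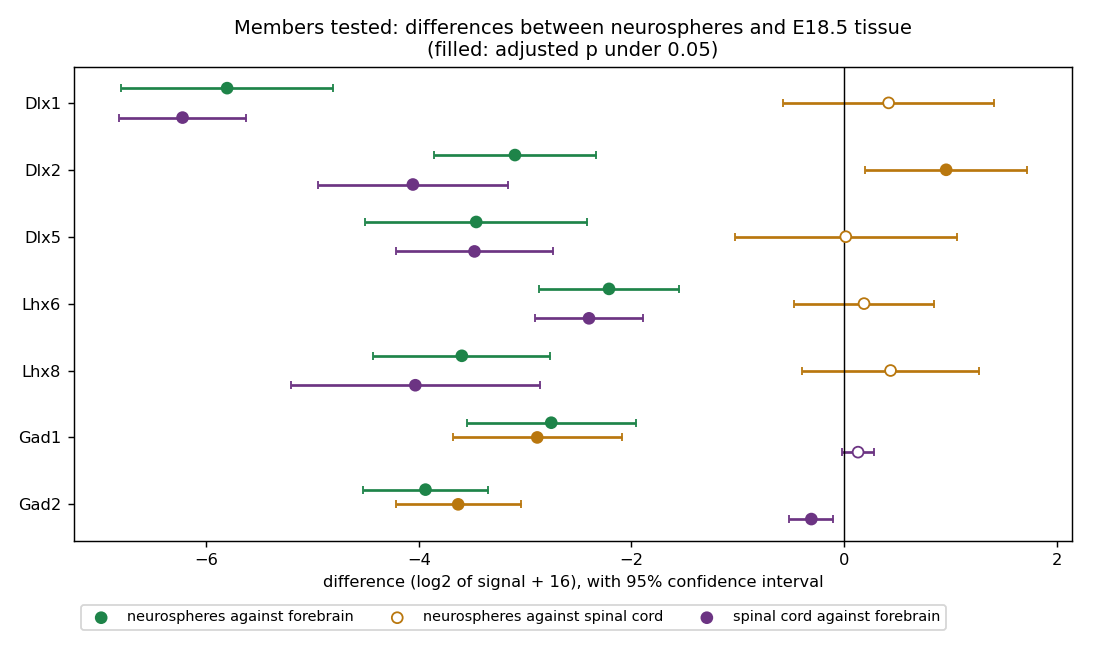
Difference of log2(signal + 16) with its 95% confidence interval for the 7 genes tested, for neurospheres against forebrain, neurospheres against spinal cord and spinal cord against forebrain, with filled points where the adjusted p is under 0.05. Dlx and Lhx genes are low in both comparisons against forebrain, and the Gad genes are low in both comparisons of neurospheres.

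In spinal cord the Dlx, Lhx6 and Lhx8 signals were far below those in forebrain, while the Gad signals of the tissues were closer. Of 7 genes tested, 6 were called lower in spinal cord than in forebrain and 0 higher, where 40.0% of 12342 genes were called, 21.3% higher and 18.7% lower. The Dlx, Lhx6 and Lhx8 differences given above ran from -6.22 to -2.40. Without the filter Dlx6 and Gsx2 were called as well (8 of 10), a count given without the share of all genes called in that fit. No cord array reached the array median for Dlx1, Dlx2, Dlx5, Lhx6 or Lhx8, so these passed the filter through forebrain, where they are high, and their count is a description. Gad2 was lower by -0.31 ± 0.09 (SE, adjusted p 0.0224) with 1429589_at, a call that was lost without null forebrain 2, heterozygous forebrain 4, null cord 1 or heterozygous cord 4. With 1421978_at its difference was -0.40 (adjusted p 0.0564). For Gad1 the probe sets disagreed, at 0.13 ± 0.07 (SE, adjusted p 0.154) with 1416561_at and -0.81 ± 0.12 (SE, adjusted p 3.29e-04) with 1416562_at. The 3'/5' Gapdh log2 ratio was 0.037 to 0.374 in spinal cord, against -0.224 to -0.066 in forebrain, and its part in the Gad1 and Gad2 values was not tested.

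Other genes of the same programmes were read from lists. A list gene that is high in tissue alone passed the filter through that tissue, so list counts against forebrain, here and below, are descriptions. Among all genes 30.9% were called lower and 30.9% higher in neurospheres than in forebrain. In spinal cord against forebrain 18.7% were called lower and 21.3% higher. Of 9 ganglionic eminence patterning and progenitor factors tested, 7 were lower in neurospheres than in forebrain and 2 higher. The summed signal of the list was 3702.9 to 6832.2 in neurospheres, 7165.7 to 7929.9 in spinal cord and 11706.2 to 12979.0 in forebrain. Meis2 is a homeodomain cofactor gene of the lateral eminence and striatum. It read 879.6 ± 295.6 in neurospheres (SD over 22 arrays, among which lines recur) and 4617.8 ± 46.1 in forebrain (SD, n = 4). In the fit, which leaves out the arrays with GFP or Olig2 virus, its difference was -2.30 (adjusted p 2.31e-09). Vax1, a ventral forebrain homeobox gene, was lower by -1.82. The 2 that were higher, named after their values were seen, were Meis1 (1.04) and the forebrain homeobox gene Six3 (0.68). In spinal cord against forebrain 8 of 9 were lower and 1 higher, namely Meis1 (2.87 ± 0.15 SE, adjusted p 1.75e-07). Nr2f1, a nuclear receptor of the forebrain, was lower in cord by -0.80.

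Of 9 migrating and maturing interneuron factors tested, 5 were lower in neurospheres than in forebrain and 1 higher. Their summed signal was 4739.5 to 10024.9 in neurospheres, 7551.4 to 7988.2 in spinal cord and 9124.4 to 10458.2 in forebrain, and the neurosphere range overlapped both. Zeb2, needed for interneuron migration to cortex, was lower by -1.95, Ackr3, a chemokine receptor of migrating interneurons, by -3.16, the chromatin organiser gene Satb1 by -0.70 and the interneuron factor gene Npas1 by -2.32. The gene that was higher, named after its values were seen, was Sox6 (0.69), which oligodendrocyte precursors also express. In spinal cord against forebrain 7 of these 9 were lower, among them Zeb2 (-1.20), Cxcr4 (-1.36) and Ackr3 (-1.08), and 2 were higher, among them Maf (1.08).

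Genes of GABA transport, breakdown and interneuron peptides were mostly lower in neurospheres than in forebrain and differed both ways between the tissues. Of 13 tested, 10 were lower in neurospheres than in forebrain and 1 higher (Htr3a, 0.85, named after its values were seen). Reln, the secreted reelin, read 242.0 ± 70.5 in neurospheres (SD over 22 arrays, among which lines recur), against 7348.8 ± 297.4 in forebrain (SD, n = 4). Its difference in the fit, without the arrays of GFP or Olig2 virus, was -4.82. Sst, the peptide of a main interneuron class, differed by -5.45, the calcium-binding protein gene Calb1 by -3.85 and the peptide gene Cck by -4.01. In spinal cord against forebrain 5 of 12 were higher and 5 lower, with a median of 0.01. Slc32a1, the vesicular GABA transporter gene, ran from 1552.2 to 2040.2 in spinal cord and from 561.6 to 877.2 in forebrain, a difference of 1.29 ± 0.11 (SE, adjusted p 6.27e-06). Abat, which breaks GABA down, was higher by 1.78, while Npy and Calb2 were lower by -0.65 and -0.70.

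The lists of other cell types were read with the same limit. In the set of neurosphere arrays without GFP or Olig2 virus, fewer neuronal genes passed the filter than against forebrain. There 10 pan-neuronal, 9 striatal and 5 cortical genes were tested. All 15 pan-neuronal genes were lower in neurospheres than in forebrain, with a median of -4.27 (Stmn2 -8.62, Snap25 -7.06, Nsg2 -4.82 and Ina -3.75). Their summed signal was 8556.6 to 13975.2 in neurospheres, 114751.9 to 132732.6 in spinal cord and 118027.5 to 121340.6 in forebrain. Striatal projection neuron genes were lower in neurospheres for 11 of 13 and cortical genes for 10 of 12, none higher (Bcl11b -4.16, Foxp1 -3.48, Neurod6 -7.84 and Tbr1 -5.36). Neural progenitor genes were higher for 9 of 12 and lower for 3 (Vim 2.78, Nes 2.35, Id3 2.79 and Hes1 2.51), and oligodendrocyte precursor genes were higher for 6 of 10 and lower for 2 (Olig1 2.83, Olig2 5.38, Bcan 1.97 and Ptprz1 1.31). Genes were named by smallest p. In these lists all those named lie on the higher side, and they do not stand for the genes called lower. Astrocyte genes were higher for 4 of 10 and lower for 4, microglial genes higher for 1 of 7 and lower for 5, and endothelial and mural genes higher for 1 of 9 and lower for 7. The part of the neuronal share in the Dlx, Lhx and Gad values was not tested.

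In spinal cord against forebrain the pan-neuronal list split, with 7 of 15 higher, 7 lower and a median of 0.04, and its summed ranges overlapped. Spinal inhibitory interneuron factors were higher in cord for 5 of 7 and lower for 0, and Lhx1, a LIM-homeodomain gene of these cells, read 995.1 ± 33.2 in spinal cord and 104.4 ± 66.9 in forebrain (SD, n = 4 each). Pax8, Lbx1 and Gbx1 were higher by 1.90, 1.77 and 0.95. In neurospheres 5 of these 7 were lower than in forebrain and 0 higher. Cortical genes were lower in cord for all 12 tested (Tbr1 -5.72, Lhx2 -4.67, Neurod6 -3.03), and striatal genes lower for 8 of 13 and higher for 3, Penk (1.85) and Ebf1 (2.75) among them. Astrocyte genes were higher in cord for all 10 (Aqp4 3.82, Gfap 2.85), summing to 41212.5 to 45638.9 in spinal cord and 8886.7 to 9690.5 in forebrain. Microglial genes were higher for 5 of 6, endothelial and mural genes for 4 of 9, oligodendrocyte precursor genes for 7 of 9 with 1 lower, and progenitor genes for 6 of 12 with 3 lower.

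**Figure D3:**
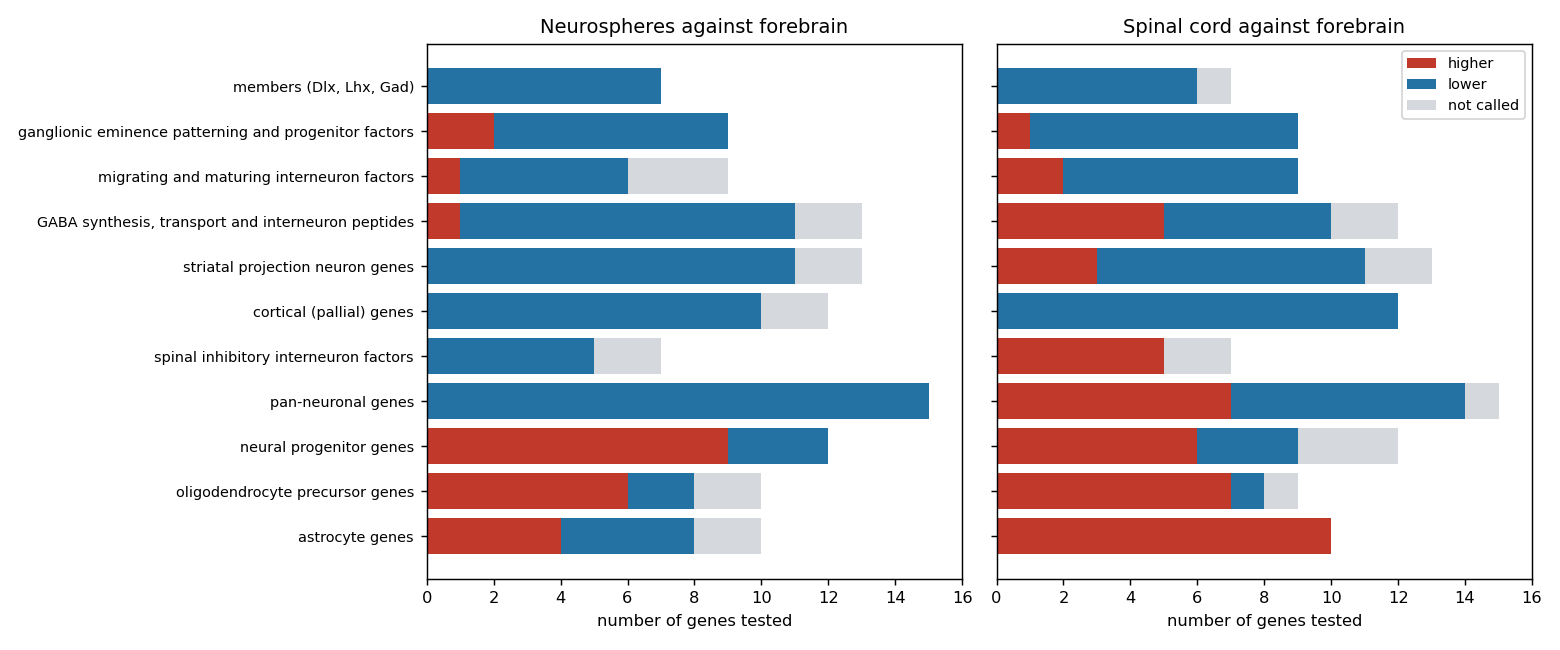
Number of genes tested in each list that were called higher (red), called lower (blue) or not called (grey), for neurospheres against forebrain and spinal cord against forebrain. The pan-neuronal list is lower for all 15 genes on the left and splits into 7 higher and 7 lower on the right.

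Whether these genes depend on Olig1/2 in neurospheres could be tested for Gad1, which alone of the 10 passed the filter there. Gad1 (1416561_at) read 614.3, 671.4, 412.7, 763.0, 510.5 and 264.7 in null lines 12, 13, 14, 16, 21 and 24. It read 419.9, 738.8 and 323.6 in heterozygous lines 11, 15 and 26, and 1027.1, 257.9 and 113.7 in wild-type lines 2, 3 and 20. The wild-type cultures alone spanned more than all null cultures, and the groups overlapped. The difference was 0.39 ± 0.41 (SE) for null against Olig-expressing cultures (95% half-width 0.88, adjusted p 0.649), where 8.32% of 12022 genes were called. It was 0.66 ± 0.50 (SE) against wild type (adjusted p 0.523, 6.70% of genes called), 0.13 ± 0.50 (SE) against heterozygous cultures (adjusted p 0.942, 3.51% called) and 0.53 for heterozygous against wild type (adjusted p 0.903, 0.0333% called). Probe set 1416562_at gave 0.36 ± 0.46 (SE) for null against Olig-expressing cultures (adjusted p 0.730, 7.53% of probe sets called). The half-width is that of an unadjusted interval, and a call at the adjusted threshold needs a larger change. With intervals this wide, changes of Gad1 somewhat above the half-width could also go uncalled.

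For the other 9 genes the neurosphere readings were too dim for that test. Without the filter 0 of 10 were called between null and Olig-expressing cultures by limma, and 0 had an unadjusted p under 0.05. The differences ran from -0.70 (Nkx2-1, unadjusted p 0.0747) to 0.39 (Gad1), and the share of all genes called without the filter is not given here. Related genes were read from the same lists. Of 5 patterning factors tested, 0 were called in null against Olig-expressing cultures, with Meis2 at 0.46 (adjusted p 0.208). Of 7 migrating interneuron factors 2 were higher, Zeb2 (0.68, adjusted p 0.00368) and the chemokine receptor gene Cxcr4 (2.37, adjusted p 0.00796), and 0 lower. Of 8 GABA and peptide genes 3 were higher and 2 lower, among them the calretinin gene Calb2 (1.98) and Reln (0.69) higher, and the GABA breakdown enzyme gene Aldh5a1 (-0.81) and Nos1 (-0.57) lower. Of 9 striatal genes 0 were called, and of 5 cortical genes 2 were higher, Lhx2 (0.99) and Emx2 (0.60). The pan-neuronal list had 2 of 10 higher (Nsg2 and Map2) and 0 lower. The oligodendrocyte precursor list had 0 of 9 higher and 3 lower, namely Cspg4 and Olig1 and Olig2, the targeted genes themselves. The progenitor list had 1 of 12 higher (Prom1) and 1 lower (Id3), and the astrocyte list 2 of 9 higher (Aldh1l1 and Slc4a4) and 1 lower (Gja1). Spinal inhibitory factors had 0 of 4 called, microglial genes 1 of 3 higher (P2ry12), and endothelial and mural genes 1 of 3 lower (Cspg4).

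**Figure D4:**
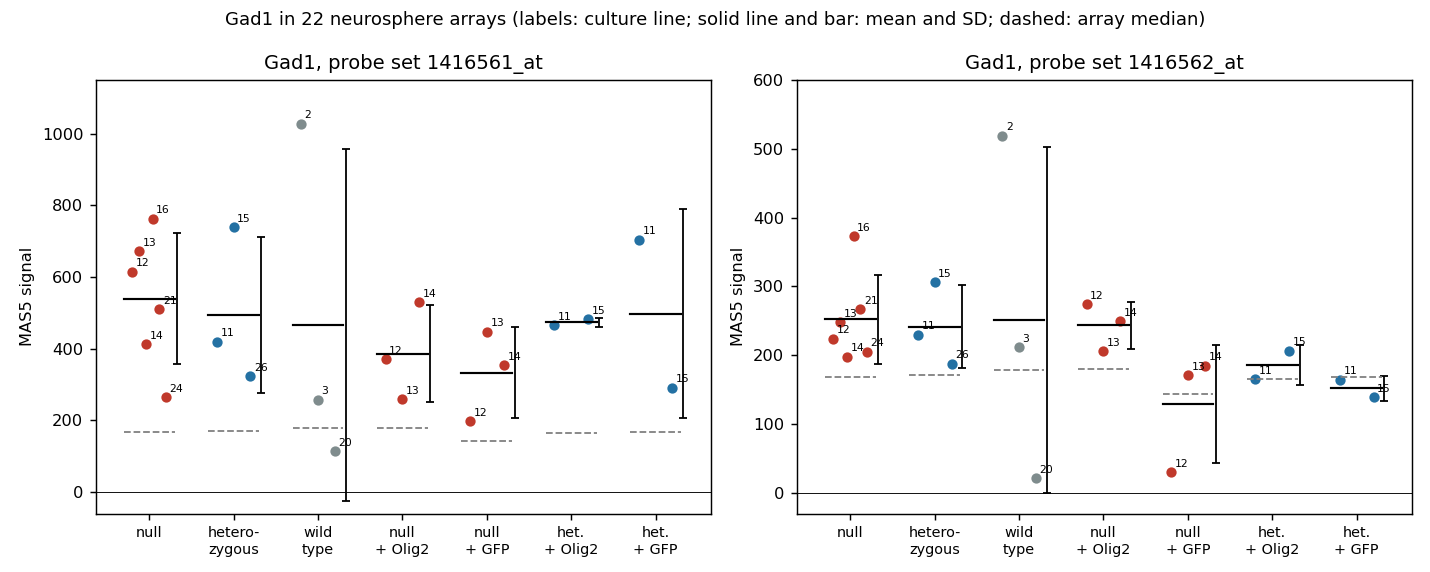
Signal (linear axis) of the pair of Gad1 probe sets on each of the 22 neurosphere arrays by group, with line numbers, the group mean and SD, and the mean of the array medians dashed. The groups overlap, and wild-type lines 2, 3 and 20 span 113.7 to 1027.1 on the left.

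Of the 10 genes, 2 passed the filter in the virus set, Gad1 and Dlx2, and Olig2 virus gave no call for either. Without the filter 0 of 10 were called in null lines by limma, a count given without the share of all genes. Gad2 with 1421978_at passed in the fit of all probe sets, at 0.58 in null lines (adjusted p 0.422). In null lines 12, 13 and 14, Gad1 (1416561_at) read 370.2, 258.9 and 529.6 with Olig2 virus, against 197.6, 447.7 and 353.7 with GFP virus. Line 13 moved down and lines 12 and 14 up, and the difference was 0.22 ± 0.37 (SE, adjusted p 0.747). Probe set 1416562_at read 274.1, 206.0 and 249.8 with Olig2 virus and 30.4, 171.5 and 184.7 with GFP virus, and its difference was 1.10 ± 0.49 (SE, unadjusted p 0.0445, adjusted p 0.180, 7.98% of probe sets called). The lowest of these was GFP line 12, in the group of lowest array medians. Dlx2, the other gene that passed the filter here, differed by 0.42 ± 0.52 (SE, adjusted p 0.644), where 7.88% of 12458 genes were called. Set against untransduced cultures of the null genotype in place of GFP, Gad1 turned to -0.56 with Olig2 virus. In null lines Id4 fell by 2.52 with Olig2 virus (adjusted p 0.00196).

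In heterozygous lines 11 and 15 Gad1 read 465.4 and 482.6 with Olig2 virus and 703.5 and 291.4 with GFP virus (difference 0.06, adjusted p 1), and Dlx2 differed by 0.17. In that comparison 0 of 12458 genes were called by limma, with 484 at an unadjusted p under 0.05. The Olig2 effect in null minus that in heterozygous lines was 0.16 ± 0.58 (SE) for Gad1 and was not called (adjusted p 0.937), where 0.0562% of genes were called. GFP virus itself went with -0.53 ± 0.29 (SE) for Gad1 against the same lines untransduced (adjusted p 0.477, 0.0241% of genes called). With 1416562_at, in the limma fit of all probe sets, it was -0.87 ± 0.38 (SE, unadjusted p 0.041, adjusted p 0.352). That probe set read 223.8, 247.7 and 197.8 in null lines 12, 13 and 14 untransduced. With Olig2 virus they read 274.1, 206 and 249.8, and with GFP virus 30.4, 171.5 and 184.7. The part of lower GFP readings in its Olig2 difference was not tested. Null against heterozygous lines with GFP virus differed by -0.50 for Gad1 and 0.01 for Dlx2 (adjusted p 0.610 and 0.997, 1.70% called). Of the related lists in null lines, Meis1 was higher with Olig2 than with GFP virus (1.80, 1 of 6 patterning factors), Cxcr4 (-2.49) and Maf (-1.36) lower (2 of 8 migrating factors), and Aldh5a1 higher (0.90, 1 of 8 GABA genes). Of other lists, 1 of 10 striatal genes was lower (Ebf1 -1.57), 1 of 6 cortical genes lower (Lhx2 -0.95), 1 of 4 spinal inhibitory factors higher (Gata2 0.75), 0 of 10 pan-neuronal genes called, 2 of 11 progenitor genes higher (Hes5 and Fabp7) 3 of 9 astrocyte genes higher (Fgfr3, S100b and Aqp4), 0 of 8 oligodendrocyte precursor genes called, 0 of 4 endothelial and mural genes called and 1 of 3 microglial genes lower (P2ry12).

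In forebrain tissue no member was called between null and heterozygous embryos, with 2 arrays a group. The differences were 0.49 for Dlx1, 0.37 for Dlx2, 0.30 for Dlx5, 0.51 for Lhx6, 0.14 for Gad1, 0.06 for Lhx8 and -0.23 for Gad2, with 95% half-widths of 0.84, 1.26, 1.04, 0.72, 0.21, 1.65 and 0.29. Of the 7 tested, 0 were called by limma and 0 had an unadjusted p under 0.05, with adjusted p of 0.810 to 0.998, and 0.0405% of 12342 genes were called. Both null arrays lay above both heterozygous arrays for 5 of 7 (Dlx1, Dlx2, Dlx5, Lhx6 with 1422262_a_at, and Gad1), where 18.3% of all genes did, and below for 1 (Gad2), where 18.1% did. Within the pairs of probe sets, Lhx6 with 1425094_a_at differed by 0.14 and its arrays overlapped, and so did Gad2 with 1421978_at (-0.03). Gsx2, Dlx6, Lhx8 and Nkx2-1 overlapped between genotypes, and Dlx6, which did not pass the filter, differed by -0.11 without it (adjusted p 0.992). Dlx6os1 read 579.6 and 492.8 in null and 399.2 and 306.2 in heterozygous forebrain (0.59, adjusted p 0.810), and Dlx1as overlapped. The oligodendrocyte precursor list holds the targeted genes Olig1 and Olig2, so its sum is not independent of the genotype. That sum was 12030.7 to 12119.9 in null and 14468.1 to 14817.8 in heterozygous forebrain, and the part of these genes was not tested.

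**Figure D5:**
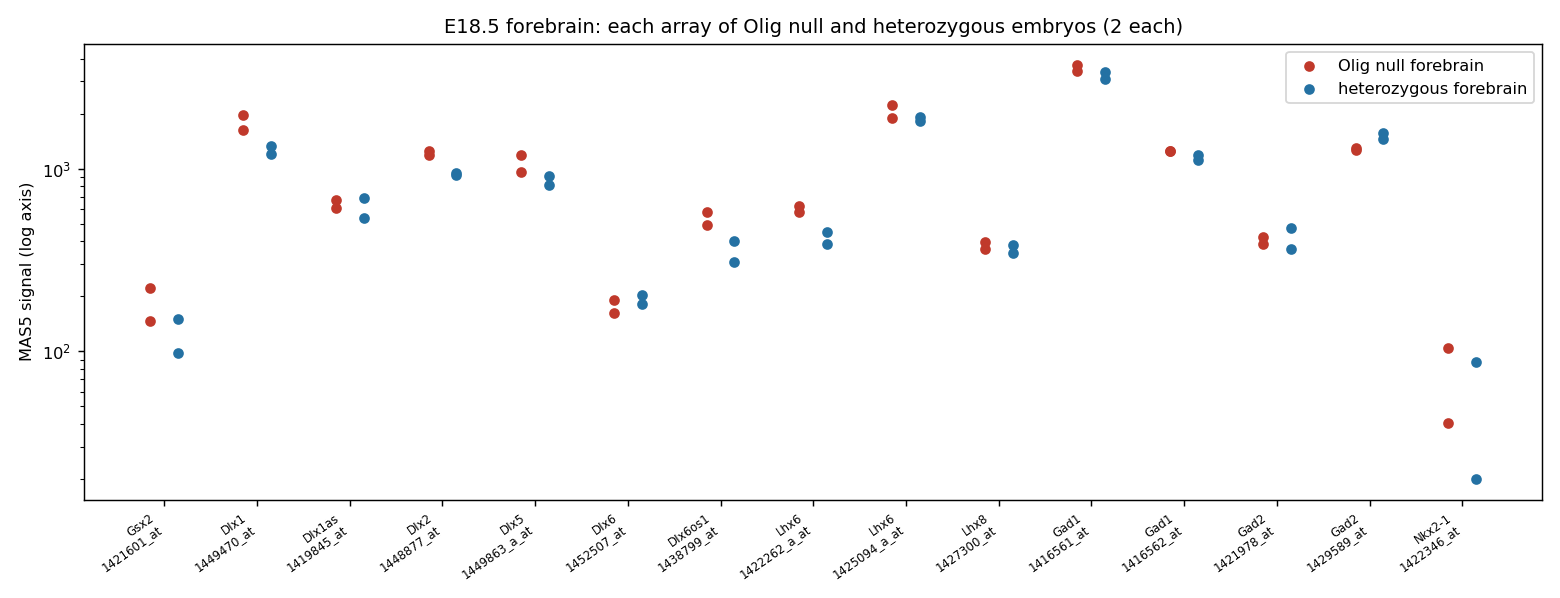
Signal (log axis) of each member probe set and of Dlx1as and Dlx6os1 on the 2 null (red) and 2 heterozygous (blue) forebrain arrays. Both red points lie above both blue points for Dlx1, Dlx2 and Dlx5, and the order is turned for Gad2 with 1429589_at.

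In spinal cord 0 of 7 were called between null and heterozygous embryos, where 0.130% of genes were. Lhx6 had the only unadjusted p under 0.05 (0.74 ± 0.33 SE, unadjusted p 0.0456, adjusted p 0.818). Its signals were 93.0 and 130.1 in null and 50.1 and 70.4 in heterozygous cord, all below the array median. With its other probe set, 1425094_a_at, the limma difference was 0.38 in the fit of all probe sets (unadjusted p 0.436, adjusted p 0.978). That probe set read 51.6 and 6.1 in null and 6.3 and 23.5 in heterozygous cord, so the genotypes overlapped. Both null arrays lay above both heterozygous arrays for 2 of 7, where 17.0% of genes did, and below for 0 of 7, where 17.8% did. The 2 were Lhx6, though not with 1425094_a_at, and Lhx8. Lhx8 read 4 and 28.1 in null and 2.8 and 3 in heterozygous cord, all below the array median. Gad1 differed by 0.10 ± 0.10 (SE) and Gad2 by 0.07 ± 0.13 (SE). The genotype effect in spinal cord minus that in forebrain had no call among the 7, with differences of -0.54 to 0.59 and adjusted p of 0.914 to 0.982, and 0 of all genes were called by limma, with 705 at an unadjusted p under 0.05. The genotype effect in neurospheres minus that in forebrain had no call among the 7 either (adjusted p 0.854 or more), where 0.614% of genes were called. Summed oligodendrocyte precursor genes, the targeted Olig1 and Olig2 among them, were 13903.2 to 15525.7 in null and 21306.4 to 21375.1 in heterozygous cord. This sum too is not independent of the genotype, and the part of these genes was not tested.

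Likeness to the Dlx genes was read as Pearson's r of log2 signal with the mean of the centred Dlx signals. Over the 8 tissue arrays the nearest genes were the young-neuron gene Dcx (0.998), the actin-binding gene Dbn1 (0.998), the striatal and deep cortical factor gene Bcl11b (0.997), Ccng2 (0.996) and Crip2 (0.996). Among the other members Lhx8 had 0.993, Lhx6 0.972, Gad2 0.796 and Gad1 -0.588. These 8 points come from 4 embryos and fall into the 2 tissues, so r mostly restates the gap between them. Over the 22 neurosphere arrays the nearest were Tgds (0.693), Cbx7 (0.672), Scd2 (0.671), Ifitm10 (0.668) and Aldh8a1 (0.649), and Gad1 had -0.117. There the Dlx signals were dim, the arrays share lines, and no test was made.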

How the data were processed

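RNA of 30 samples was measured on Affymetrix arrays. The authors deposited a linear intensity per probe set, the MAS5 signal, made with MAS5 per the submitters' processing notes (version not given in the sources used here). After trimming 2% of probe sets at either end, every array of the deposited values averaged 500, so arrays had been scaled beforehand. Detection calls were not used here. The labels give a single hybridization day, so no batch could be compared. Replicates carry line or embryo numbers, and columns of other samples numbered 0. The number of arrays limits the precision.

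Of 45101 probe sets, 34945 had 1 gene symbol in the platform annotation, 932 had several and 9224 had none, the 64 controls included. RefSeq (GRCm38.p6) matched 34741 by Entrez identifier. A gene stands for its probe set with the highest mean (log2) across all 30 arrays, with a second fit over all probe sets. The log2 of the deposited signal plus 16 was fitted in R 4.3.3 by limma 3.58.1, using lmFit, contrasts.fit and trended eBayes. Tests were two-sided, and p-values were adjusted by Benjamini-Hochberg over all genes of a comparison. There were 5 sets of arrays: 12 neurosphere arrays without GFP or Olig2 virus, 10 with it, 10 of lines 11, 12, 13, 14 and 15 with GFP virus and without, 8 tissue arrays, and 20 for cultures against tissue, where null and heterozygous samples were weighted equally and wild-type cultures informed only the spread. Same-numbered arrays come from the same line or embryo per the labels. Their deviations correlated at 0.011 to 0.059 in the virus set, -0.048 to 0 in the vector set and 0.002 to 0.018 in tissue, and the line or embryo was a block (duplicateCorrelation) as an alternative. Other alternatives were pseudocounts of 1 and 64, no filter, scaling by quantiles or the 75th percentile, a fit of all probe sets, each array left out in turn, and untransduced arrays as the control for Olig2.

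The members, the 12 gene lists (137 of 148 memberships had a probe set) and the tests were chosen with earlier results of these data known. Genes named were the members, Olig1, Olig2 and Id4, up to 4 genes of smallest p of a described list, and the 5 nearest to the Dlx mean. The R package data.table (1.17.8) and pandas 2.3.3 read the files, and plots drawn with matplotlib 3.10.9. The fits were tested on simulated data with known changes.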

Additional observations from a re-analysis of the deposited data

Results flagged for a closer look

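Dlx1 (1449470_at) read 52.8 in null line 16, where the nearest of the other 5 null cultures read 14.2. The gap was 0.808 of the group's range, above Dixon's 95% critical value for 6 samples. It was 1 of 13 groups examined in this way, and chance flags about 1 in 20. The signal lies below the array median.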

How the results depend on the processing

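For the 7 genes that passed a filter (not Dlx6, Gsx2 and Nkx2-1), most calls held. Of their values under the alternatives, 1146 kept direction and side of the threshold, 7 lost the call, 46 changed sign without being called and 0 reversed while called. The 7 were the Dlx2 difference of neurospheres against spinal cord and the Gad2 difference of spinal cord against forebrain, each with 1 array left out. Among the uncalled were Gad1 with untransduced arrays as the control for Olig2 (-0.56), Gad1 (-0.04) and Dlx2 (-0.07) in the interaction of Olig2 with genotype under quantile scaling, and Dlx5 in neurospheres against spinal cord (-0.03 with pseudocount 1). Scaling moved the median of all genes by over 0.1 in neurospheres against spinal cord (0.102 with quantile scaling, main -0.003) and in Olig2 against GFP in null lines (-0.088 with 75th percentile scaling, main 0.028). The replicate block changed no call of a member. It moved the count over all genes for the interaction of Olig2 with genotype to 15 from 7, and pseudocount 64 to 17. Counts over all genes were fragile where few were called: GFP against untransduced 5 with quantile scaling (main 3), spinal cord minus forebrain genotype effect 1 with pseudocount 64 and 1 with all probe sets (main 0), heterozygous against wild type 0 without filter, 1 with 75th percentile scaling and 2 with all probe sets (main 4), and null against heterozygous forebrain 3 without filter (main 5). With each array left out, the ranges were 0 to 5 for GFP, 0 to 2 for the spinal cord minus forebrain effect, 1 to 34 for the interaction, 0 to 8 for heterozygous against wild type, 2 to 10 for forebrain and 2 to 17 for spinal cord (main 16), 29 to 104 for neurospheres minus forebrain (main 84), and 0 to 4 for Olig2 in heterozygous lines (main 0). They were 298 to 1171 for Olig2 in null lines (main 982), 41 to 304 for null against heterozygous with GFP (main 212), 245 to 442 for null against heterozygous neurospheres (main 422) and 479 to 829 for null against wild type (main 806). The causes were not tested.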
